A study of Mus musculus with 8 samples.

Results

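The genes of the heat shock and DnaJ chaperones were followed in duct cells of the mouse liver that had been sorted into 2 populations, ST14high and ST14low. Members were all gene symbols that begin with Hspa or Hspb and a digit, with Hsp90, or with Dnaja, Dnajb or Dnajc and a digit, together with Hspd1, Hspe1 and Hsph1. This rule used names alone and found 72 of the 20377 gene symbols in the files. There were 13 Hspa genes, 8 Hspb genes, 3 Hsp90 genes, 4 Dnaja, 13 Dnajb and 28 Dnajc genes, the chaperonin pair Hspd1 and Hspe1, and Hsph1.

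Chaperones bind unfolded or partly folded proteins and help them to fold, to cross membranes or to be degraded. Proteins of the Hspa family bind and release their clients in a cycle driven by ATP, in which a DnaJ protein delivers the client and starts hydrolysis and an exchange factor such as Hsph1 resets the cycle. Heat and other protein damage raise the cytosolic members through the transcription factor HSF1, and unfolded protein in the endoplasmic reticulum (ER) raises the ER members through the unfolded protein response. Tissue digestion and cell sorting are also known to induce some of these genes.

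All 8 samples were duct cells from the livers of wild-type C57BL/6 mice. The sort took non-parenchymal liver cells that bound the antibody MIC1-1C3, which marks duct cells, were negative for CD26 and were not blood cells, and divided them by surface ST14 (matriptase, a membrane serine protease of epithelia) into ST14high and ST14low, with 4 samples each. Age and sex are not given in the labels, nor is it stated whether each sample is a separate animal, so a p-value here reflects the spread among these 8 samples alone, which may be technical. RNA of each sample was sequenced, and the deposited files give raw read counts and RPKM (reads scaled to transcript length and library size) for each transcript.

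Library totals, over the 1 transcript kept for each symbol, were 17418202, 24149337, 42769988 and 33014559 counts in ST14high replicates 1 to 4. They were 23321501, 19878910, 6398307 and 31011678 counts in ST14low replicates 1 to 4. ST14high replicate 1 stood apart on the first principal component of all genes, which held 40.8% of the variance, at -95.5 where the other 7 libraries lay between -7.74 and 30.1. The St14 transcript averaged 305 ± 32.5 CPM (counts scaled by library size; mean ± SD, n = 4) in ST14high, against 329.9 ± 49.0 CPM in ST14low. The 10 duct cell markers, among them Spp1, Krt19, Epcam and Sox9, summed to between 12486 and 22969 CPM in ST14high libraries and between 17557 and 24306 CPM in ST14low libraries. Spp1 made up most of each sum, between 8586 and 19979 CPM in ST14high and between 15060 and 21603 CPM in ST14low. ST14high replicate 1 was lowest for Spp1, but it was the highest library for 3 of the 10, among them Krt19 at 1522 CPM. Markers of other cells were present as well. Summed hepatocyte markers lay between 4831 and 12231 CPM in ST14high and between 7567 and 14120 CPM in ST14low. Macrophage markers lay between 241 and 293 CPM in ST14high, below the 299 to 743 CPM in ST14low. Endothelial markers ranged from 17.5 to 942 CPM in ST14high and from 226 to 995 CPM in ST14low, and lymphocyte markers did not exceed 11.1 CPM in ST14high and 24.4 CPM in ST14low. Summed markers of pancreatic acinar cells reached 9844 CPM in ST14high replicate 1 and 1423 CPM in ST14high replicate 2, between 5.67 and 11.9 CPM in the other ST14high libraries and between 4.94 and 112 CPM in ST14low libraries, with Amy2a5 at 0 throughout. In such bulk samples, fewer cells of a type and less RNA per cell cannot be told apart.

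Per transcript length, 3 genes made up 44.3% of the summed RPKM of all members. Hsp90ab1, the constitutive cytosolic Hsp90, was highest at 626 ± 24.0 RPKM in ST14high and 581 ± 88.5 RPKM in ST14low (SD, n = 4 each). Hspa5, the ER chaperone also called BiP, stood at 341 ± 124 RPKM in ST14high and 343 ± 44.7 RPKM in ST14low. Hsp90b1, the Hsp90 of the ER, stood at 356 ± 42.0 RPKM in ST14high and 288 ± 53.7 RPKM in ST14low. Levels of Hspa5 and Hsp90b1 overlapped within their spread, whereas Hsp90ab1 lay above both.

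The mitochondrial Hsp70 Hspa9 followed at 115 ± 4.38 RPKM in ST14high and 122 ± 6.39 RPKM in ST14low. Below it came a group without clear order, which included Dnajb4, a cytosolic DnaJ protein. Hspa8, the constitutive cytosolic Hsp70, stood at 61.7 ± 9.65 RPKM in ST14high and 66.1 ± 27.3 RPKM in ST14low. The DnaJ proteins Dnaja2 and Dnajc7 lay within the same range. The stress-inducible Hsp70 genes were far lower, with Hspa1b averaging 14.9 RPKM in ST14high and 13.6 RPKM in ST14low, and Hspa1a at 9.99 ± 8.57 RPKM in ST14high and 6.57 ± 2.03 RPKM in ST14low. The plot of levels per length shows the leading members in order.

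**Figure D1:**
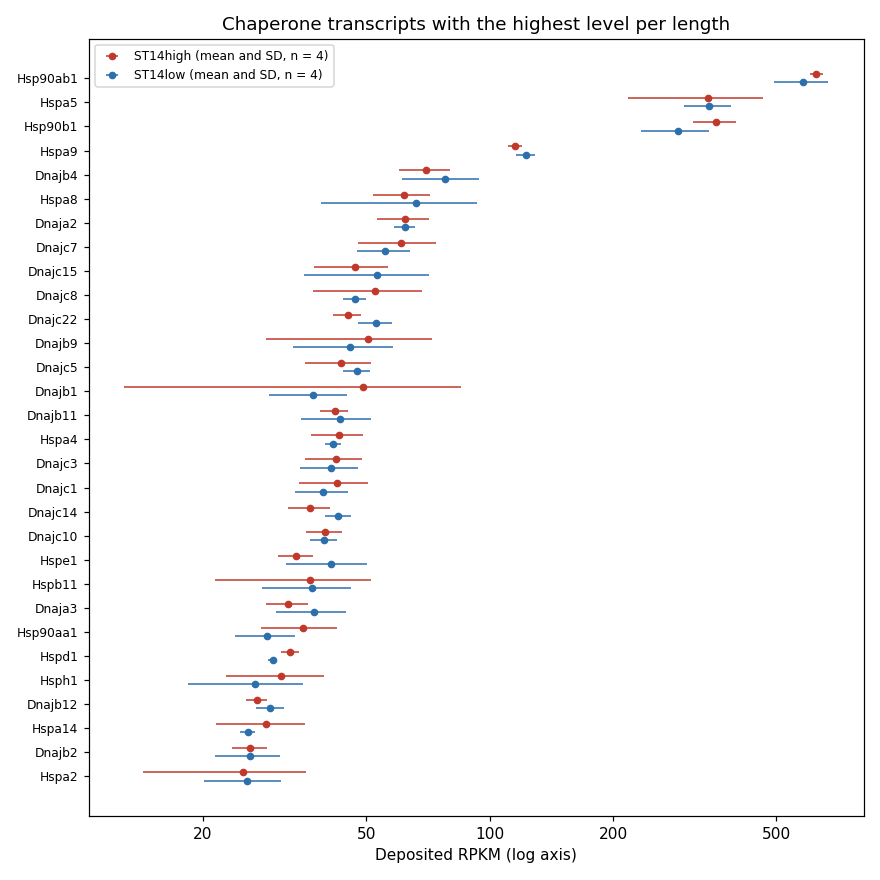
Deposited RPKM on a log axis for the 30 members with the highest mean level, as mean and SD over 4 ST14high libraries (red) and 4 ST14low libraries (blue). Hsp90ab1, Hspa5 and Hsp90b1 lie apart at the top, above Hspa9 at 115 RPKM in ST14high and 122 RPKM in ST14low.

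Members best known from testis were mostly low. Dnajb8 and Dnajc5g, together with Dnajc5b and the muscle gene Hspb3, had 0 counts in all libraries, which allows up to 0.0701 CPM in the deepest library and 0.469 CPM in the shallowest (3 counts, counting error only). Dnajb7 had 33 counts and Hspb9 18 counts over the 8 libraries. These 6 genes fell under the low-count filter, and the other 66 members were tested. Hspa2, which is essential for sperm development, was higher, at 25.0 ± 10.7 RPKM in ST14high and 25.6 ± 5.48 RPKM in ST14low.

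Chaperone expression was compared between the 2 populations. In edgeR's quasi-likelihood test 0 of 66 members passed an adjusted p of 0.05, as did 0% of the 13749 genes tested, with 0.192 the smallest adjusted value. An unadjusted p below 0.05 was found in 3 members higher in ST14high, Hspb7, Dnajc6 and Hspa4l, and in 0 lower. That is 4.55% of members, beside 6.89% of all genes higher, 2.68% lower and 9.56% in either direction. DESeq2's Wald test called 2 members, Hspb7 and Dnajc6, both higher, or 3.03% of the 66, where it called 1.62% of 13580 genes higher and 0.103% lower, 1.72% in all. Limma's voom test called 0 members, as it did 0% of all genes. All 4 ST14high libraries lay above all 4 ST14low libraries in Hspb7 and Hsp90b1, or 3.03% of members beside 4.09% of all genes, and 0 members lay wholly below, beside 2.33% of all genes, with 6.42% of all genes apart in either direction. The members' shares were thus near or below the background, except in DESeq2's test, where 2 genes made the share. Both of these genes passed the low-count filter only through ST14high, where they were high.

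Fold changes of most members were small. The log2 fold change was above 0 in 42 members and below 0 in 24, with a median of 0.07 where that of all genes was 0.00. Upper-quartile scaling gave 35 above and 31 below, and leaving out ST14high replicate 1 gave 34 above and 32 below. In 61 of 66 members the fold change lay within 0.5 of 0. The 95% interval lay within 1 log2 unit of 0 in 50 members, and within a 1.5-fold change in 23. Summed over all members, chaperone transcripts made up 7735, 6284, 5868 and 6282 CPM in ST14high, against 6104, 6533, 5836 and 6059 CPM in ST14low. Apart from ST14high replicate 1, which was highest, the libraries of the populations intermingled.

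**Figure D2:**
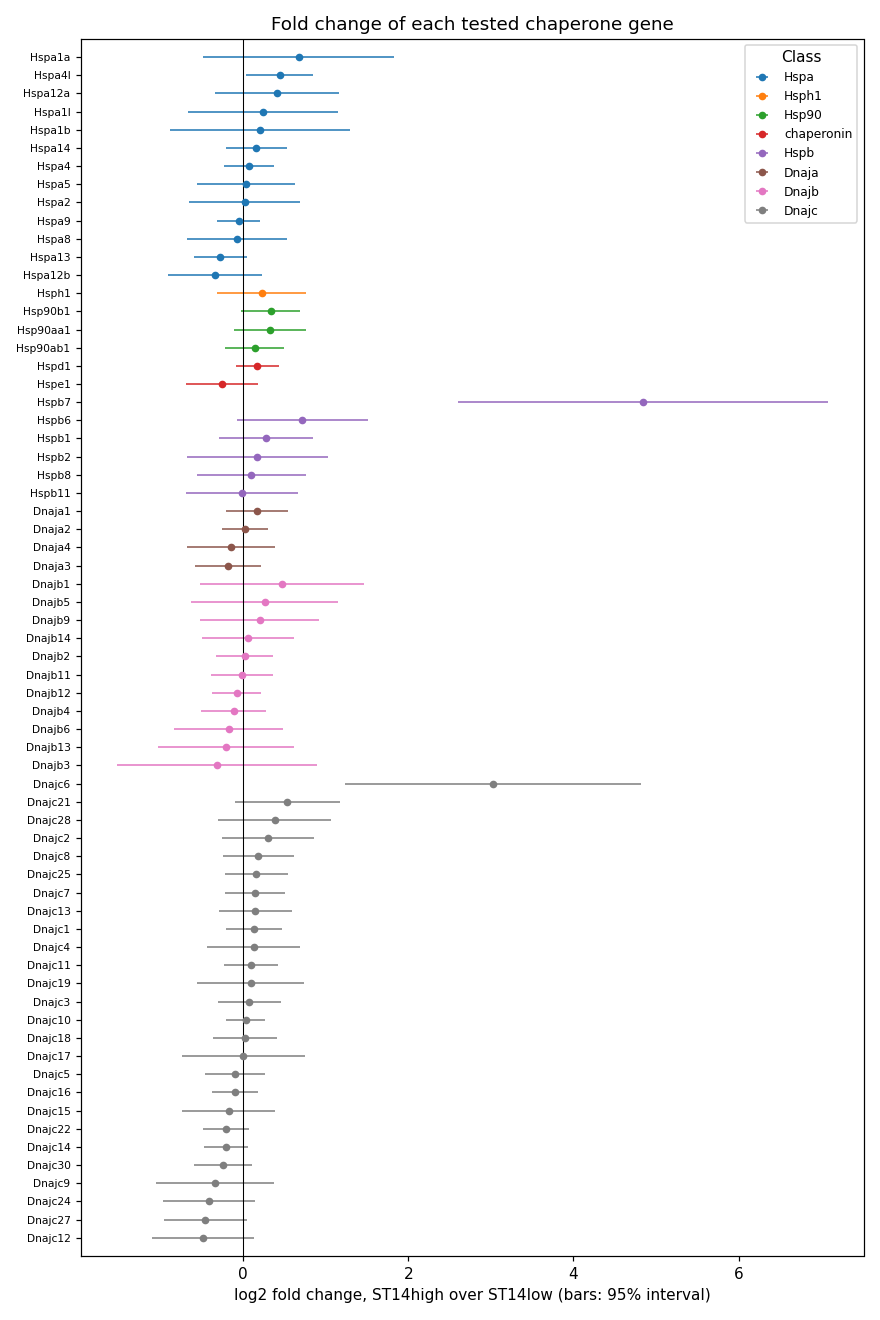
Log2 fold change of ST14high over ST14low for the 66 tested members, coloured by class, with 95% intervals from edgeR. Hspb7 at 4.84 and Dnajc6 at 3.03 lie far to the right, while the other members lie between -0.49 and 0.72.

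Small heat shock proteins hold unfolded proteins without using ATP, and several are typical of muscle. Hspb7, best known from heart and skeletal muscle, had the largest fold change of all members. Its gene lies on chromosome 4, where the counted transcript spans 140976693 to 140981225 on the plus strand of build mm9. It was measured at 9.28, 2.03, 0.968 and 8.84 CPM in ST14high libraries, against 0.384, 0.0512, 0 and 0.188 CPM in ST14low libraries. The populations did not overlap, and ST14high replicates 1 and 4 were high while replicates 2 and 3 were much lower. The values rest on 147, 51, 41 and 298 counts in ST14high and on 9, 1, 0 and 6 counts in ST14low. The log2 fold change was 4.84 (SE 1.00, 95% interval 2.60 to 7.08), a fitted value that leans on the few counts in ST14low. The adjusted p over all genes was 0.192 in edgeR and 0.271 in limma's voom, and 8.61e-05 in DESeq2. The exact permutation p was 0.0286, the smallest that 4 against 4 libraries allow. Leaving out any library kept the log2 fold change between 4.42 and 5.60 and DESeq2's adjusted p between 4.42e-07 and 0.00476. Hspb7 passed the low-count filter only through ST14high, the population in which it was high, and was not tested under the filter of 5 CPM in at least 4 libraries.

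Markers of smooth muscle ran alongside Hspb7. The 6 smooth muscle markers summed to 897, 138, 42.1 and 428 CPM in ST14high, against 54.1, 15.5, 8.33 and 26.2 CPM in ST14low, and all 6 were higher in ST14high on average. The order of the ST14high libraries was the same for these sums, for Hspb7 and for Myh11, smooth muscle myosin, which stood at 379, 51.3, 14.5 and 139 CPM in ST14high, against 20.9, 2.05, 0.772 and 8.85 CPM in ST14low. Markers of fibroblasts and stellate cells, of which 9 of 9 were higher in ST14high, summed to between 333 and 2262 CPM in ST14high and between 82.6 and 239 CPM in ST14low. Summed markers of fibroblasts and stellate cells, endothelium, macrophages and lymphocytes had the same order in ST14high, so this order was not particular to smooth muscle. The part of any of these cells in the Hspb7 result was not tested.

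Dnajc6, or auxilin, works with Hspa8 to strip clathrin from vesicles and is best known in neurons. It lies on chromosome 4 at 101223198 to 101315404, plus strand. Values were 7.58, 0.875, 2.62 and 3.56 CPM in ST14high libraries, against 0.213, 0.256, 1.08 and 0.407 CPM in ST14low libraries. ST14low replicate 3, the shallowest library with 7 counts for this gene, lay above ST14high replicate 2 with 22 counts, so that the populations overlapped. The log2 fold change was 3.03 (SE 0.80, 95% interval 1.23 to 4.82), with an adjusted p of 0.278 in edgeR and 0.0137 in DESeq2 and an exact permutation p of 0.0571. DESeq2's call was lost without ST14high replicate 1 (adjusted p = 0.115) or 4 (0.0508), and without ST14low replicate 1 (0.114), 2 (0.0897) or 4 (0.0913). Dnajc6 too passed the low-count filter only through ST14high, the population in which it was high. It had 5, 5, 7 and 13 counts in ST14low, and was not tested under the 5 CPM filter.

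Mesothelial markers followed the order of Dnajc6 in ST14high. They summed to 778, 120, 170 and 186 CPM in ST14high, against 26.7, 22.3, 54.8 and 18.7 CPM in ST14low, with 5 of 6 higher in ST14high on average. Within ST14low, replicate 3 was highest for both, but the other libraries fell in a different order. The Dnajc6 value in ST14low replicate 3 rests on 7 counts in the shallowest library. Summed macrophage, endothelial and lymphocyte markers also peaked in that library within ST14low. The part of mesothelial cells in the Dnajc6 result was not tested. The plot of both genes beside these markers shows the values by library.

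**Figure D3:**
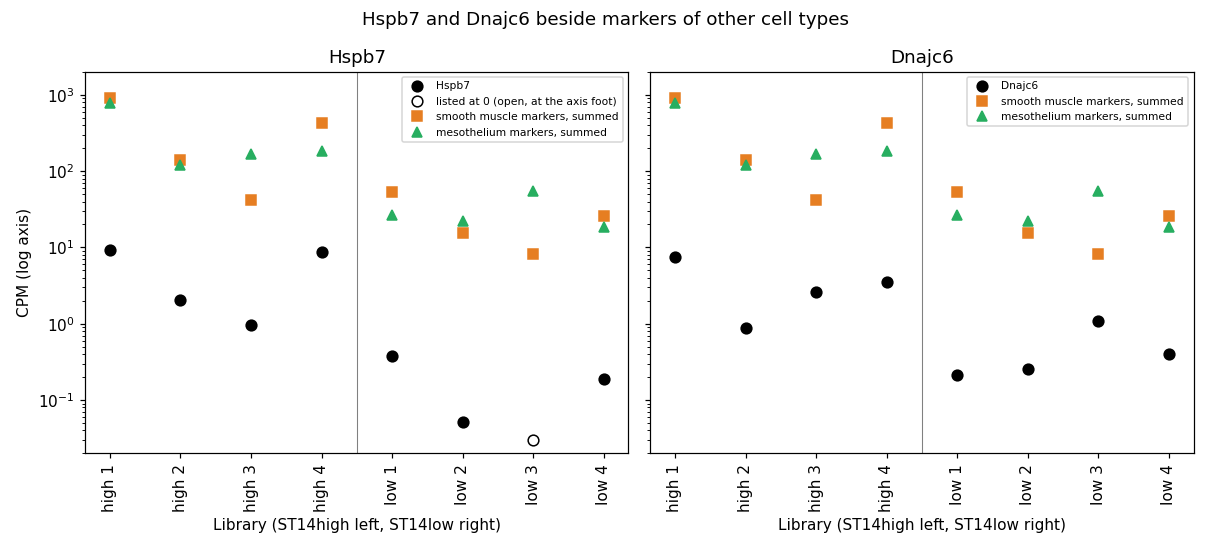
CPM on a log axis in each of the 8 libraries for Hspb7 (left) and Dnajc6 (right), in black, beside the summed smooth muscle markers (orange) and mesothelial markers (green), with ST14high libraries left of the grey line. Hspb7 lies between 0.968 and 9.28 CPM in ST14high and at most at 0.384 CPM in ST14low.

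The other muscle-type members differed much less. Hspb6, abundant in smooth muscle, was at 15.0, 8.83, 7.70 and 21.2 CPM in ST14high, against 10.5, 6.15, 6.79 and 8.47 CPM in ST14low. Its 2 highest values were ST14high replicates 4 and 1, and the other ST14high libraries lay among those of ST14low (log2 fold change 0.72, SE 0.35, edgeR adjusted p = 0.557). Hspb2 and Dnajb5 had log2 fold changes of 0.17 (SE 0.38) and 0.26 (SE 0.40). Of the 5 genes listed as muscle-enriched 4 were tested, and all 4 fold changes were above 0 (median 0.49), and 3 of 4 without ST14high replicate 1 or 3. Cryab is a small heat shock protein outside the naming rule, whose gene starts 403 bases from Hspb2 on the opposite strand of chromosome 9. Cryab stood at 184 ± 49.5 CPM in ST14high, against 163 ± 57.4 CPM in ST14low (log2 fold change 0.17, edgeR adjusted p = 0.845). Of the 50-base windows of Hspb2, 28.0% also occur in transcripts of Cryab, so the split of reads between them is uncertain.

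Among the widely expressed small heat shock proteins, Hspb1 was at 23.8, 14.7, 16.4 and 22.8 CPM in ST14high, against 14.7, 23.1, 13.6 and 12.5 CPM in ST14low. Hspb8, which acts with the cochaperone Bag3 in selective autophagy, was at 65.3, 29.9, 35.6 and 41.8 CPM in ST14high, against 36.2, 61.6, 33.8 and 29.1 CPM in ST14low. Both were high in ST14high replicate 1 and ST14low replicate 2, and the populations overlapped, with log2 fold changes of 0.28 (SE 0.25) and 0.10 (SE 0.29). Hspb11, an intraflagellar transport protein of the cilium despite its name, had a log2 fold change of -0.01 (SE 0.30).

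Several stress-inducible genes were marked by ST14high replicate 1. Hspa1a and Hspa1b encode near-identical Hsp70 proteins that are classic targets of HSF1. Their genes lie on chromosome 17 on the minus strand, with starts 12918 bases apart in mm9. The 250 bases before each start, shown because both carry the same paired heat shock unit, differ at 3 positions. Capitals mark GAANNTTC, the head-to-head pair of the HSF1 binding unit, which reads the same on both strands (RefSeq, GRCm38.p6, chr17:34972157-34972406 and chr17:34959239-34959488, minus strand).
Hspa1a: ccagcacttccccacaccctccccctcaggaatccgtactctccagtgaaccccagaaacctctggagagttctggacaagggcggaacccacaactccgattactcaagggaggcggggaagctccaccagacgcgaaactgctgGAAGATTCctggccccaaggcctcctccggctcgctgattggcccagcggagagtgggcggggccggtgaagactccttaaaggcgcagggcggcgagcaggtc
Hspa1b: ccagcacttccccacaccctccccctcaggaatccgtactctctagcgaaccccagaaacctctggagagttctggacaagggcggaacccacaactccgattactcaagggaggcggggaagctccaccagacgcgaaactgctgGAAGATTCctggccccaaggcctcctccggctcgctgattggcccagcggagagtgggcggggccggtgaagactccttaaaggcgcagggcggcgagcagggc

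Hspa1a was at 68.8, 16.4, 12.4 and 17.6 CPM in ST14high, against 20.5, 16.5, 11.1 and 23.4 CPM in ST14low. Hspa1b was at 99.1, 26.7, 18.6 and 27.4 CPM in ST14high, against 38.4, 30.8, 26.4 and 52.4 CPM in ST14low. In both genes ST14high replicate 1 was far above every other library, at 4.16 and 3.62 times the median of the other 7, and the remaining ST14high libraries lay within or below the ST14low range. The log2 fold changes were 0.67 (SE 0.52, edgeR adjusted p = 0.69) and 0.20 (SE 0.49, adjusted p = 0.909). Without ST14high replicate 1 they were -0.22 and -0.62. Of their 50-base windows, 66.3% and 62.3% also occur in transcripts of other genes, chiefly in each other, so the split of reads between them is uncertain. Hspa1l, a testis Hsp70 that starts 546 bases from Hspa1a on the other strand, shared 71.4% of its windows and stayed at or below 3.22 CPM.

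Dnajb1, the DnaJ partner of the inducible Hsp70 and an HSF1 target itself, was at 242, 79.6, 49.6 and 68.0 CPM in ST14high, against 96.1, 88.2, 55.9 and 75.3 CPM in ST14low. ST14high replicate 1 again stood alone, at 3.21 times the median of the other libraries. The log2 fold change of 0.47 (SE 0.45, edgeR adjusted p = 0.743) was -0.27 without that library. Only 0.441% of its windows occur in other transcripts. Hspa2 showed the same layout, with 113, 43.8, 48.9 and 53.7 CPM in ST14high, against 77.3, 55.2, 50.3 and 72.5 CPM in ST14low. ST14high replicate 1 lay above all other libraries, and the fold change on the log2 scale was 0.02 (SE 0.30), or -0.39 without it.

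In other genes of the stress-inducible list ST14high replicate 1 stood out less. Hsp90aa1, the inducible cytosolic Hsp90, was at 115, 80.4, 62.9 and 90.6 CPM in ST14high, against 56.4, 66.4, 73.6 and 81.5 CPM in ST14low. Its highest value was ST14high replicate 1, and ST14high replicate 4 also lay above ST14low, while replicates 2 and 3 lay within the ST14low range (log2 fold change 0.33, SE 0.20, edgeR adjusted p = 0.609). Hspa8 was at 137, 116, 88.4 and 102 CPM in ST14high, against 106, 190, 98.3 and 73.5 CPM in ST14low. Its highest library was ST14low replicate 2, and its log2 fold change of -0.08 (SE 0.27) was 0.25 without that library. Hsph1, an exchange factor of the Hsp70 cycle, was at 84.9, 117, 68.9 and 81.4 CPM in ST14high, against 73.3, 111, 57.2 and 58.6 CPM in ST14low. Replicate 2 was highest in each population, and the log2 fold change was 0.23 (SE 0.24). It was 0.058 without ST14high replicate 2, 0.47 without ST14low replicate 2 and 0.60 in limma's voom, where the adjusted p was 0.291.

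The stress-inducible list held 12 genes, 10 of the cytosol and the mitochondrial pair Hspd1 and Hspe1. Hspa8, the constitutive cytosolic Hsp70, was counted among those 10. Of these 0 were called, 9 had a fold change above 0 and 3 below, and the median was 0.19. Without ST14high replicate 1, 5 were above and 7 below 0, with a median of -0.18. In that fit Hspa1b of this list was lower at an unadjusted p below 0.05, as was Dnajc27 among the other members, and 4 members (Hspb7, Dnajc6, Hspa4l and Dnajc2) were higher, beside 3.65% of all genes lower and 6.05% higher. ST14high replicate 1 was the highest library in 8 of the 12 (66.7%) and in 23 of all 66 members (34.8%), where it was highest in 23.0% of all genes tested. Leaving it out was therefore bound to lower the fold changes of those 8 genes. ST14low replicate 2 was highest in 13 members, 19.7%, beside 23.0% of all genes. ST14high replicate 1 also held the highest summed markers of acinar, smooth muscle, mesothelial and fibroblast cells, and their part in these values was not tested. The plot of stress genes by library sets these values beside steady members.

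**Figure D4:**
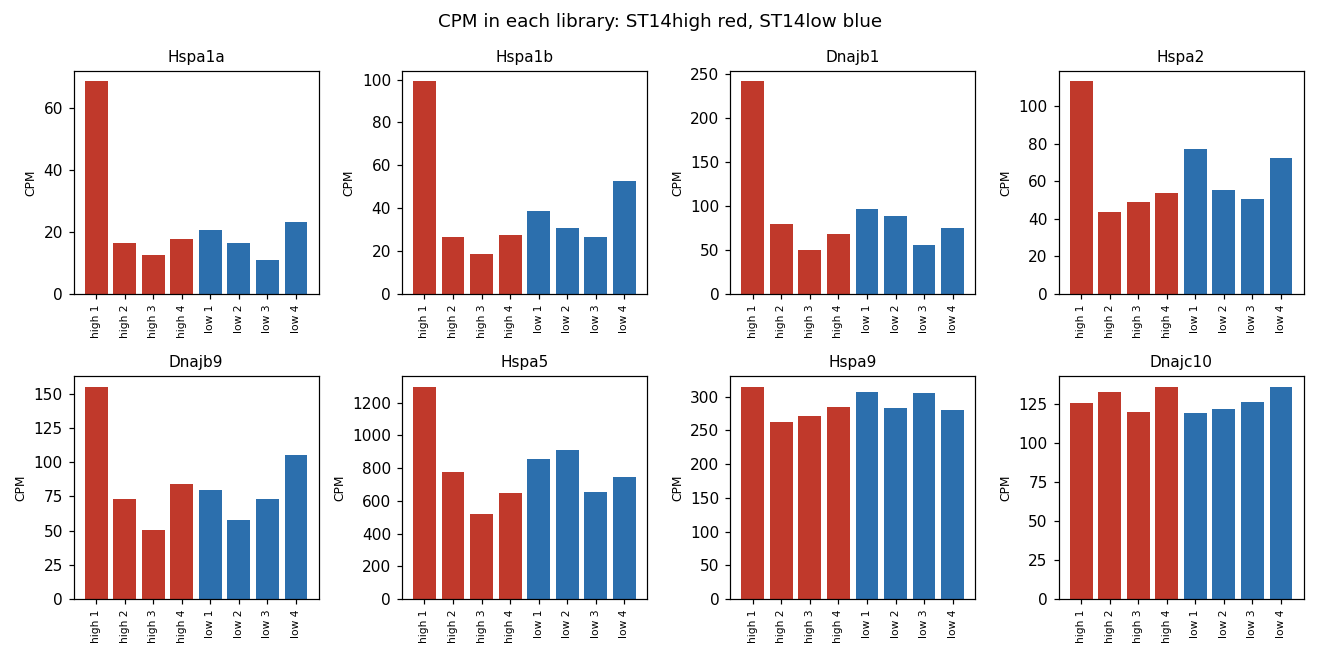
CPM in each library for 8 members, ST14high in red and ST14low in blue, each panel with its own linear axis from 0. Hspa1a, Hspa1b, Dnajb1 and Hspa2 peak in ST14high replicate 1, whereas Hspa9 lies between 262 and 315 CPM and Dnajc10 between 119 and 136 CPM in all libraries.

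Members of the ER form a set that folds secreted and membrane proteins. The 250 bases before the start of Hspa5, Hsp90b1 and Dnajc3 are shown because these were the only members among the 58 with a RefSeq window that held the ER stress response element, searched on either strand. The motif occurs in 0.113% of 32851 such windows. Capitals mark each match (RefSeq, GRCm38.p6; Hspa5 chr2:34771840-34772089, plus strand; Hsp90b1 chr10:86705445-86705694, minus strand; Dnajc3 chr14:118937682-118937931, plus strand).
Hspa5: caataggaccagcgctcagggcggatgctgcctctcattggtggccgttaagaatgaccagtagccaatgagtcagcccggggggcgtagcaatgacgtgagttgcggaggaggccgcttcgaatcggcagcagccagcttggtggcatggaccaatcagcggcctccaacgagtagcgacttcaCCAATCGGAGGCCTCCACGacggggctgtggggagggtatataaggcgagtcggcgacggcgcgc
Hsp90b1: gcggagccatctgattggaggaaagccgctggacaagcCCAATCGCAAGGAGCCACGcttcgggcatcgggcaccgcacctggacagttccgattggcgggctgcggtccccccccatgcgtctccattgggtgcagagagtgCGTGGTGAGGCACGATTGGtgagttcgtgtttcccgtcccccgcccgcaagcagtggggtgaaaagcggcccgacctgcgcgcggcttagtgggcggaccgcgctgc
Dnajc3: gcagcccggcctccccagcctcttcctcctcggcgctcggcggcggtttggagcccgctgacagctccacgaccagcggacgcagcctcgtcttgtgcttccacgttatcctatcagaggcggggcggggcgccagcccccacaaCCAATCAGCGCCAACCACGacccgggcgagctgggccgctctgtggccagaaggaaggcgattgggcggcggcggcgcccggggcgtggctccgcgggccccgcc

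These 3 genes had different patterns across the libraries. Hspa5 was at 1297, 775, 519 and 647 CPM in ST14high, against 855, 907, 654 and 743 CPM in ST14low. ST14high replicate 1 was highest while ST14high replicates 3 and 4 were the lowest of all, and the log2 fold change of 0.04 (SE 0.27) was -0.29 without replicate 1. Hsp90b1 was at 754, 697, 708 and 860 CPM in ST14high, against 483, 543, 677 and 696 CPM in ST14low. Every ST14high library lay above every ST14low library, but the gap was only 696.6 against 695.9 CPM. The populations overlapped under upper-quartile factors, the size factors of DESeq2, library totals alone, no low-count filter or the 5 CPM filter.

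The log2 fold change of Hsp90b1 was 0.33 (SE 0.16, 95% interval -0.02 to 0.68), with an edgeR adjusted p of 0.534 and an exact permutation p of 0.0286. It lay between 0.24 and 0.41 when any 1 library was left out. Its highest library was ST14high replicate 4, not replicate 1. Dnajc3, a cochaperone of Hspa5, was at 252, 212, 161 and 185 CPM in ST14high, against 165, 175, 229 and 201 CPM in ST14low, with full overlap and a log2 fold change of 0.07 (SE 0.17).

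The ER DnaJ protein Dnajb9, which binds Hspa5 and restrains the unfolded protein sensor Ern1, was at 155, 73.2, 50.4 and 84.3 CPM in ST14high, against 79.4, 57.5, 73.1 and 106 CPM in ST14low. ST14high replicate 1 was highest, at 2.12 times the median of the other libraries, and the log2 fold change of 0.20 (SE 0.32) was -0.19 without it. Dnajb11, which feeds clients to Hspa5, had a log2 fold change of -0.02 (SE 0.17), and Dnajc10, a reductase of wrong disulphide bonds, one of 0.03 (SE 0.11). Dnajc10 had the smallest spread of all tested members, with a coefficient of variation of 5.45% over the 8 libraries. Of the 12 ER genes listed, 8 fold changes were above 0 and 4 below (median 0.05). Without ST14high replicate 1 the median was -0.06, with 5 above and 7 below.

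In the mitochondrion, Hspa9 pulls proteins through the inner membrane and Hspd1 and Hspe1 form the folding chamber. Hspa9 was at 315, 262, 271 and 284 CPM in ST14high, against 307, 282, 305 and 280 CPM in ST14low. These values overlapped fully, with a log2 fold change of -0.05 (SE 0.12, 95% interval -0.31 to 0.20) and the second smallest spread, a coefficient of variation of 6.46%.

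Hspd1 and Hspe1 lie head to head on chromosome 1, with starts 215 bases apart in mm9. The 120 bases before the Hspe1 start are shown because they hold the 3-unit heat shock element, which occurs in either orientation in 0.466% of windows and among members in those of Dnajb6, Hspd1 and Hspe1. Capitals mark overlapping matches on both strands (RefSeq, GRCm38.p6, chr1:55088028-55088147, plus strand). The shorter GAANNTTC, which the longer motif contains, occurs in 6.69% of windows and in those of 11 members.
Hspe1: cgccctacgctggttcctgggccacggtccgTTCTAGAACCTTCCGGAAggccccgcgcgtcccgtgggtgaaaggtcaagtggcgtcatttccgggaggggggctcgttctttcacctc

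The fold changes of the pair differed in sign. Hspd1 stood at 66.8, 62.0, 64.5 and 56.7 CPM in ST14high, against 55.7, 58.2, 53.4 and 54.5 CPM in ST14low, so that a single ST14low library reached into the ST14high range (log2 fold change 0.17, SE 0.12, edgeR adjusted p = 0.649). Hspe1 was at 22.9, 22.6, 21.4 and 18.0 CPM in ST14high, against 19.9, 34.1, 24.1 and 23.3 CPM in ST14low, highest in ST14low replicate 2 (log2 fold change -0.26, SE 0.19, adjusted p = 0.686). The difference between the fold changes of the 2 genes was not tested. For each, 44.8% of windows occur in other transcripts. Over 10 mitochondrial members, 5 fold changes were above 0 and 5 below (median 0.02).

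Hsp90 proteins mature kinases and steroid receptors. Hsp90ab1, the constitutive cytosolic form, was at 1524, 1249, 1324 and 1243 CPM in ST14high, against 1268, 1485, 1042 and 1058 CPM in ST14low. The populations overlapped through ST14low replicates 1 and 2 (log2 fold change 0.14, SE 0.16, edgeR adjusted p = 0.788). All 3 Hsp90 genes had a fold change above 0, also under each other scaling and without each library in turn, though 0 of them passed edgeR's or DESeq2's test.

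Exchange factors related to Hsph1 included Hspa4 and Hspa4l. Hspa4l, known for its role in sperm and kidney, was at 46.3, 44.7, 40.6 and 54.0 CPM in ST14high, against 25.4, 32.1, 43.8 and 35.5 CPM in ST14low. Only ST14low replicate 3 reached the ST14high range. The log2 fold change was 0.44 (SE 0.18), with an unadjusted p of 0.0359, an edgeR adjusted p of 0.499 and an exact permutation p of 0.0571. Hspa4 had a log2 fold change of 0.08 (SE 0.14, 95% interval -0.23 to 0.38).

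The fold changes of most DnaJ genes lay near 0. The median log2 fold change was -0.06 for the 4 Dnaja genes, -0.02 for the 11 tested Dnajb genes and 0.05 for the 26 tested Dnajc genes. Apart from Dnajc6, the farthest from 0 was Dnajc21, a factor of ribosome assembly, at 0.53 (SE 0.28). The lowest fold changes of all members were those of Dnajc12, at -0.49 (SE 0.27), Dnajc27, a small GTPase with a J domain, at -0.46 (SE 0.23), and Dnajc24, which acts in diphthamide synthesis, at -0.42 (SE 0.25). Their edgeR adjusted p-values were 0.597, 0.557 and 0.611. Dnajc5, the cysteine string protein of secretory vesicles, and Dnaja2 stayed near 0, at -0.10 (SE 0.16) and 0.02 (SE 0.12).

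Sequence shared between genes limits several of these counts. Against all annotated mouse transcripts (GENCODE M21), 22 of 72 members shared over 10% of their 50-base windows with transcripts of other genes. Hspa8 shared 74.8%, Hspb1 60.4%, Hsp90aa1 58.5% and Dnaja1 30.6%, and how the authors treated reads with several matches is not given in the sources used here. Hsp90ab1, Hspa9 and Dnajb9 shared 4.49%, 4.1% and 5.8%, and Hsp90b1 13.8%.

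**Figure D5:**
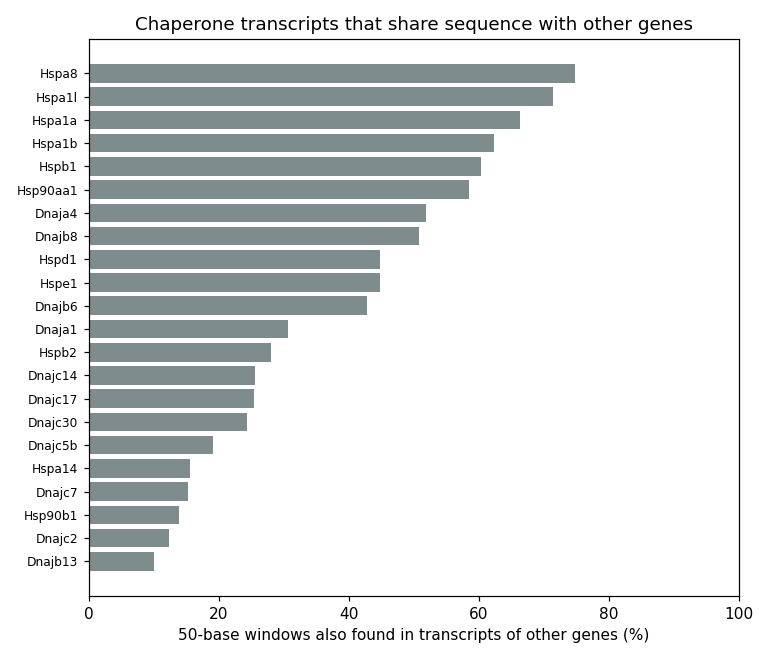
Share of 50-base windows of each member's transcript that also occur in transcripts of other genes, in percent, for the 22 members over 10%. Hspa8 leads at 74.8%, followed by Hspa1l at 71.4% and Hspa1a at 66.3%.

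Genes that act around the chaperones were read from lists outside the naming rule. In edgeR and in DESeq2 0 genes of these lists were called. Of 23 genes for HSF1, its relatives and cochaperones, 12 had a fold change above 0 and 11 below (median 0.01). Hsf1 itself was at 46.8 ± 2.91 CPM in ST14high, against 41.8 ± 6.23 CPM in ST14low (log2 fold change 0.16). Fkbp4, an Hsp90 cochaperone, was at 326 ± 16.3 CPM in ST14high, against 322 ± 115 CPM in ST14low. Ptges3, the Hsp90 cochaperone p23, was at 27.5, 27.8, 27.4 and 27.1 CPM in ST14high, against 34.2, 37.7, 34.4 and 29.6 CPM in ST14low. All 4 ST14high libraries lay below those of ST14low and close together (log2 fold change -0.31, SE 0.13, unadjusted p = 0.042, edgeR adjusted p = 0.507).

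The cytosolic chaperonin TRiC, which folds actin and tubulin, has 8 subunit genes, and all 8 had a fold change below 0, between -0.31 and -0.14 with a median of -0.21. This held under each other scaling, and 7 of 8 were below 0 without ST14low replicate 2, with a median of -0.12. Cct5 was at 189 ± 28.4 CPM in ST14high, against 208 ± 46.5 CPM in ST14low, and Cct2 at 176 ± 11.6 CPM in ST14high, against 203 ± 25.4 CPM in ST14low. Of 20 genes of the unfolded protein response, 10 had a fold change above 0 and 10 below (median 0.01). Without ST14high replicate 1 there were 5 above and 15 below (median -0.11). Leaving out ST14high replicate 3 instead gave 15 above and 5 below (median 0.06). Leaving out ST14low replicate 2 gave 14 above and 6 below (median 0.11). The lectin chaperones Calr and Canx were at 662 ± 114 and 574 ± 27.5 CPM in ST14high, against 640 ± 167 and 613 ± 39.0 CPM in ST14low. Of 10 genes for mitochondrial protein quality control, 7 were above 0 and 3 below (median 0.01), with the proteases Yme1l1 at 124 ± 5.44 and Lonp1 at 115 ± 18.2 CPM in ST14high, against 123 ± 32.9 and 111 ± 4.87 CPM in ST14low.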

How the data were processed

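RNA was measured in 4 ST14high and 4 ST14low samples, grouped and numbered by their titles. Per the labels' protocols, freshly sorted cells went into TRIzol and libraries were made with a TruSeq kit. Per the submitters' processing notes, the tools were Bowtie 1.0.0 and CASAVA 1.8.2 and the genome build was mm9; no role is stated for either tool. Not given in the sources used here are the counting program, the annotation release and whether strand was used. The authors deposited raw counts, whole numbers without normalization, for each of 26005 RefSeq transcripts. Deposited RPKM values, scaled by transcript length and library size, were used only to set levels between genes.

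Of each symbol the transcript with the most counts was kept. Differences were tested on counts with edgeR 4.0.16 (R 4.3.3; quasi-likelihood test, TMM factors, filterByExpr, population as the only term, two-sided, Benjamini-Hochberg over 13749 genes, threshold 0.05). CPM use TMM-scaled library sizes. Exact two-sided permutation tests ran over 70 arrangements of log2(CPM + 0.5). DESeq2 1.42.0 and limma 3.58.1 (voom with quality weights) were alternatives, with other scalings and filters, the longest transcript per symbol, a replicate block and leaving out each library. DESeq2 without each library was added after seeing the data. The common biological coefficient of variation was 38.4%. Chi-square per degree of freedom over 28 pairs of libraries was 17.8 to 352, above counting noise for every pair. The procedure was tested on simulated data.

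The members, gene lists and naming rule were chosen with earlier results of these data known. Named were 23 listed chaperones, members at an unadjusted p under 0.05 or without overlap, the 2 of highest mean RPKM per class, the 3 largest fold changes each way, the 2 genes of highest mean CPM and any at an unadjusted p under 0.05 of each related list, and St14, Cryab and Hsf1. For 1 gene that this rule names, values are not reported here. Other genes were named after their values were seen. Promoter windows and coordinates in GRCm38.p6 are from RefSeq (58 of 72 members matched by symbol); other coordinates are those of the files, in mm9. Transcripts for shared windows were matched by accession for 72 members. Plots were drawn with matplotlib 3.10.9 in Python 3.11.15.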

Additional observations from a re-analysis of the deposited data

Results flagged for a closer look

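In 132 groups of 4 libraries (66 tested members in each population), 6 held a highest library farther from the rest than Dixon's 95% limit, which chance exceeds in about 1 in 20 groups. In 4 of them that library was ST14high replicate 1: Dnajb1 at 242 CPM where the next ST14high library was at 79.6 CPM, Hspa2 at 113 CPM (next 53.7 CPM), Hspa1b at 99.1 CPM (next 27.4 CPM) and Hspa1a at 68.8 CPM (next 17.6 CPM). The other 2 were Dnajb14, an ER DnaJ protein, at 15.9 CPM in ST14high replicate 2 (next 10.7 CPM), and Hspa1l at 3.09 CPM in ST14low replicate 3 (next 2.10 CPM), the shallowest library.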

How the results depend on the processing

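In edgeR 0 members were called under any other scaling, filter, transcript choice, the replicate block or any left-out library, and the members' median log2 fold change stayed between 0.01 and 0.09. DESeq2 called 234 genes and 2 members, and, chosen after seeing the data, 283, 262, 421 and 216 genes without ST14high replicates 1 to 4 and 161, 177, 312 and 163 without ST14low replicates 1 to 4, with 1 or 2 members, Hspb7 every time. Its log2 fold changes were 4.91 for Hspb7 and 3.03 for Dnajc6. Members without overlap numbered 1 under DESeq2's size factors, upper-quartile factors or no filter, and 3 to 5 with 1 library left out. There were 0 at 5 CPM, where Hspb7 and Dnajc6 were not tested and Hsp90b1 overlapped. In these settings the share of tested members, 0% to 7.58%, was below that of all genes, 5.8% to 12.7%, in every fit. Members at an unadjusted p under 0.05 numbered 1 at 5 CPM, 7 in voom, and 2 to 6 with 1 library left out. That was 1.61%, 10.6% and 3.03% to 9.09% of tested members, beside 8.58%, 11.4% and 6.43% to 11.3% of all genes, and the members' share was the lower in each fit. The causes of these changes were not tested.

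Reversed log2 fold changes were small under upper-quartile factors (Dnaja2 -0.012, Hspa2 -0.040, Hspa5 -0.018) and library totals alone (Hspa2 -0.032, Hspa5 -0.0036). In voom they were Dnajb11 0.063, Dnajb9 -0.23, Dnajc15 0.047, Hspa1a -0.26, Hspa1b -0.64, Hspa2 -0.42 and Hspa8 0.28. With 1 library left out, 24 of 66 members changed sign in some fit. For the 14 of these that the naming rule covers the ranges were Dnajb1 -0.27 to 0.69, Dnajb9 -0.19 to 0.38, Dnajc3 -0.049 to 0.16, Hspa1a -0.22 to 0.89, Hspa1b -0.62 to 0.43, Hspa2 -0.39 to 0.17, Hspa5 -0.29 to 0.18, Hspb11 -0.30 to 0.13, Hspb8 -0.17 to 0.37, Dnaja2 -0.051 to 0.082, Hspa8 -0.25 to 0.25, Dnajb11 -0.13 to 0.11, Dnajc15 -0.31 to 0.088, Dnajb4 -0.23 to 0.011. The other 10 were Dnajc10 -0.0012 to 0.066, Dnajb2 -0.049 to 0.16, Dnajc4 -0.056 to 0.32, Dnajc13 -0.020 to 0.29, Dnajc19 -0.028 to 0.25, Hspb2 -0.029 to 0.53, Dnajc17 -0.16 to 0.16, Dnajc18 -0.10 to 0.13, Dnajb14 -0.13 to 0.19, Dnajb5 -0.019 to 0.64.

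Deviations of same-numbered samples correlated at 0.07, 0.04, -0.13 and 0.01, and 0 of 4 ST14high samples correlated best with their own number. Such low correlations cannot exclude that same-numbered samples shared a preparation, which the labels do not state. Summed acinar markers peaked in replicate 1 of both populations (9844 CPM in ST14high, 112 CPM in ST14low), as did smooth muscle markers (897 and 54.1 CPM). The other marker lists peaked at different replicate numbers in the 2 populations. The fit with the replicate number as a block called 2 genes and 0 members, and its reversed values were Dnajb11 0.0030, Hspa1b -0.087, Hspa2 -0.066 and Hspa5 -0.041. ST14low replicate 3, with 6398307 counts over the kept transcripts, limits what can be seen of low members.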

Other observations

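Immediate early genes, which cells switch on within minutes of a stimulus, were read beside the stress chaperones. Of 16 such genes, 0 were called by edgeR or DESeq2, 7 had a log2 fold change above 0 and 9 below, and the median was -0.09. ST14high replicate 1 was their highest library in 10 of 16 (62.5%), where it was highest in 23.0% of all genes. Klf4, a transcription factor, was at 361, 42.4, 36.0 and 82.7 CPM in ST14high, against 55.3, 18.3, 39.2 and 55.2 CPM in ST14low. Its value in ST14high replicate 1 was 8.52 times the median of the other libraries. The log2 fold change was 1.63, with an edgeR unadjusted p of 0.0452, an edgeR adjusted p of 0.511 and an exact permutation p of 0.286. Klf4 was the 1 gene of the 16 at an unadjusted p below 0.05, beside 6.89% of all genes higher. Egr1 averaged 5780 ± 789 CPM in ST14high, against 5535 ± 621 CPM in ST14low, and Jun averaged 3064 ± 463 CPM in ST14high, against 3905 ± 859 CPM in ST14low.

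Atf3, chosen after its values were seen, was at 3692, 1301, 702 and 869 CPM in ST14high, against 2311, 4247, 1175 and 1572 CPM in ST14low, so that ST14low replicate 2 was highest. With ST14low replicate 2 left out, 10 of the 16 immediate early genes had a fold change above 0 and 6 below (median 0.05). With ST14high replicate 3 left out, 8 were above and 8 below. Without ST14high replicate 1, 2 of 16 had a fold change above 0 and 14 below (median -0.36). In that fit 5 genes, Atf3, Klf6, Myc, Dusp1 and Jun, were lower at an unadjusted p under 0.05, or 31.2% beside 3.65% of all genes. All 5 had their highest ST14high value in replicate 1, so leaving it out was bound to lower their fold changes. For this list such genes were counted for this left-out library alone, so no conclusion is drawn from the share. Ddit3, a transcription factor of ER stress also chosen after its values were seen, was at 54.4, 16.7, 14.2 and 10.2 CPM in ST14high, against 11.5, 17.6, 8.80 and 13.0 CPM in ST14low.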
